A study of Homo sapiens with 4 samples.

Results

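Genes that set the balance between epithelial and mesenchymal states were followed in DU145, an established line of prostate cancer cells, after knockdown of TAZ. A list of 10 genes was fixed by symbol, with earlier results of these data known. It held the cadherins CDH1 and CDH2, the intermediate filament gene VIM and the splicing factors ESRP1 and ESRP2. The transcription factors on it were ZEB1, SNAI2, OVOL1, OVOL2 and GRHL2. Of the 10 genes, 9 had a row among the 19871 gene rows of the deposited table. All 9 entered the test, which covered 17737 genes. CDH2 was not analysed here.

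The data comprised 4 RNA-seq libraries. In 2 of them, the controls, cells carried the lentiviral hairpin vector pLKO, and the other 2 came from cells with TAZ knockdown. All cells were kept in DMEM with 10% FBS. The series states that 2 independent hairpins against TAZ were used, without saying which library carries which, so the knockdown libraries may differ by hairpin as well as by chance. Nothing in the labels places the libraries of a group in separate cultures, so a p-value here reflects spread among 4 libraries that could be purely technical. The series title asks which genes are targets of TAZ in prostate cancer cells.

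The epithelial-mesenchymal transition is a switch in which cells trade E-cadherin junctions and apical-basal polarity for vimentin filaments and motility. ZEB1 and the Snail family member SNAI2 bind E-box sequences and repress CDH1 and other epithelial genes, while OVOL and Grainyhead-like factors such as GRHL2 act in the opposite direction, partly by repressing ZEB1. ESRP1 and ESRP2 are RNA-binding proteins that keep exons in their epithelial pattern, and ESRP1 is itself repressed by ZEB1. In prostate carcinoma, loss of E-cadherin and gain of vimentin are read as signs of this transition. TAZ, the product of WWTR1, is a Hippo pathway coactivator that works through TEAD factors on DNA and has been linked to mesenchymal traits in other carcinomas.

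The promoter windows of ZEB1 are shown because ZEB1 is the repressor at its centre and TEAD factors are the DNA-binding partners of the protein that was knocked down. The E-box CACCTG and the TEAD core GGAATG were searched on both strands in RefSeq windows of 300 bases (GRCh38.p14, 5′ to 3′ on the strand of the gene). Of 7 ZEB1 windows, the windows printed here were the only ones with either motif. The first, at chr10:31318167-31318466 on the plus strand, held 1 E-box (capitals, first) and 1 TEAD core (capitals, second), and the other, at chr10:31318966-31319265 on the plus strand, held 3 E-boxes (capitals). The single VIM window held neither. No motif overlapped another.
ZEB1 window with both motifs: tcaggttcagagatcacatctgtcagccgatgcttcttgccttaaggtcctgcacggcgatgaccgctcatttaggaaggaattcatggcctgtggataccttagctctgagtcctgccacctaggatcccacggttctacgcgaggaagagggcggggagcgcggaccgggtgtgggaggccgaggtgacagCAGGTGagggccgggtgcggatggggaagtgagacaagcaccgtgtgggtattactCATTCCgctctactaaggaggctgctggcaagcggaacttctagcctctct
ZEB1 window with 3 E-boxes: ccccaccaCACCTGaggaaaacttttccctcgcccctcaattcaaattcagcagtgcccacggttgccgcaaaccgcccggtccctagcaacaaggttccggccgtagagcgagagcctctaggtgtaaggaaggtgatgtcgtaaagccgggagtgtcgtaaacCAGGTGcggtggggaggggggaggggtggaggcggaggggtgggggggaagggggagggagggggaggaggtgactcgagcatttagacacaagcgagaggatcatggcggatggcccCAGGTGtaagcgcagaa
Among all 35116 windows in the table, 20.6% held the E-box and 14.0% the TEAD core. A match is a description of letters and shows no binding.

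Depth and identity were checked first. Recovered reads on gene rows numbered 11669804 to 14789849 per library. WWTR1, the targeted gene, had normalized counts of 2508 and 3626 in the controls against 839 and 719 after knockdown, 0.254 times the control mean, and it fell with a log2 fold change of -1.96 ± 0.20 (SE, limma adjusted p = 0.0086). With any 1 library left out it kept its direction (-2.22 to -1.69). It lost that call when the tested genes were held fixed, and kept it in all 4 fits when the filter on low values was applied anew. Of the prostate epithelial markers, KRT8, KRT18, KRT19, KRT7 and EPCAM were present in all libraries, with sums of 51816 and 70041 in the controls against 51476 and 36561 after knockdown. Of 6 luminal, androgen-responsive markers, TMPRSS2 had 0 to 3.13 normalized counts, and the others are not described here. Leukocyte and endothelial markers (5 of 6 in the table) summed to 1261 and 1331 in the controls and to 1204 and 1019 after knockdown, nearly all of it CD68 (1016 to 1310), and PECAM1 had at most 1.86. Of the fibroblast markers, COL1A1 had 36.8 to 147 normalized counts. In bulk RNA such as this, fewer cells of a kind and less RNA per cell cannot be told apart.

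Most of the 9 members had higher values after knockdown, and few passed a test. A higher mean was seen for 8 of them, 5 had both knockdown values above both controls, and 1, VIM, had both below. Over all tested genes, 18.4% lay above both controls and 19% below, and 8684 of 17737 (49%) had a higher mean. The members were chosen with earlier results of these data known, so their direction is no separate support. The median log2 fold change of the 9 was 0.63, beside -0.01 over all tested genes. That median is the value of GRHL2, which had 0 to 4 reads a library. Of the 8 higher means, those of GRHL2 and OVOL1 rest on 0 to 5 reads a library. limma called 0 members at an adjusted p under 0.05, against 0.0113% of all tested genes (0.00564% called higher), and 4 members (CDH1, SNAI2, ESRP1 and OVOL2) had an unadjusted limma p under 0.05, as had 7.05% of all tested genes. edgeR and limma-voom also called 0 members, against 0.0564% and 0.0113% of genes, with the 4 members at an unadjusted p under 0.05 beside 7.14% and 7.23% of genes. The authors' deposited table called 1 member, ESRP1, as higher, where it called 0.45% of its genes as higher and 0.537% in either direction. DESeq2 on the recovered reads called the same member, beside 0.454% of genes as higher and 0.542% in either direction, and 4.16% of genes had an unadjusted DESeq2 p under 0.05. The median varied with single libraries. Leaving out knockdown 2 gave 0.19 and leaving out knockdown 1 gave 1.39, the latter being the value of OVOL1. The same for control 1 and control 2 gave 0.41 and 1.10.

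**Figure D1:**
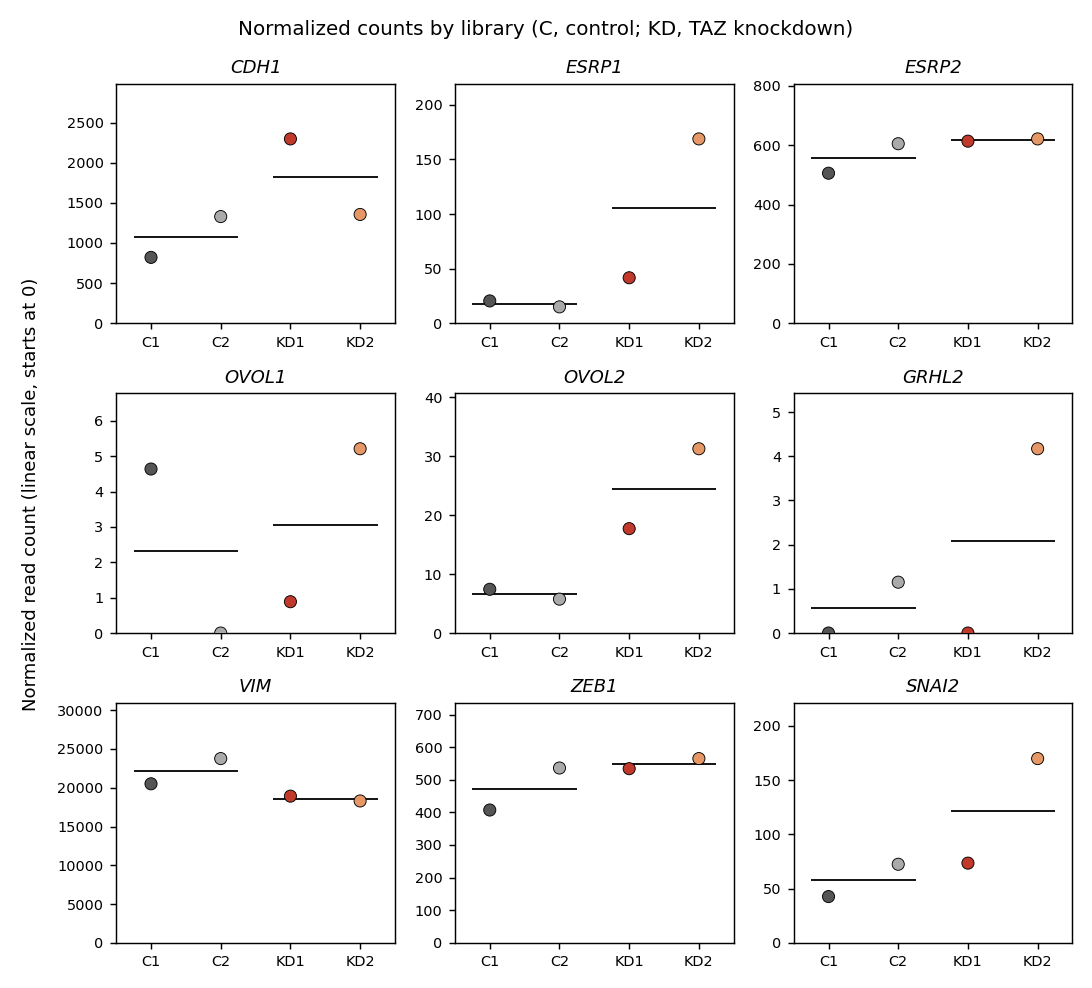
Normalized read count (y axis, linear, from 0) of each of the 9 genes in control 1 and 2 (C1, C2) and knockdown 1 and 2 (KD1, KD2). Points are libraries and bars are group means. ESRP1 and OVOL2 lay above both controls in both knockdown libraries, with the larger value in knockdown 2, and CDH1 was highest in knockdown 1 (2296).

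ESRP1 had the highest log2 fold change of the 9 in limma. It stood at 20.4 and 15.0 normalized counts in the controls against 41.6 and 169 after knockdown, so the groups did not overlap and the knockdown libraries lay far from each other. The recovered reads behind these values were 22 and 13 against 47 and 162, with 95% Poisson intervals on the normalized scale of 12.8 to 30.9 and 7.96 to 25.6 in the controls, 30.6 to 55.3 in knockdown 1 and 144 to 197 in knockdown 2. The mean went from 17.7 ± 3.86 to 105 ± 90.0 (SD, n = 2 each). That is 5.95-fold, made of 2.35-fold in knockdown 1 and 9.55-fold in knockdown 2 against the control mean.

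The tests of ESRP1 differed by tool. In the authors' deposited table its log2 fold change was 0.80 ± 0.20 (SE) at an adjusted p of 0.0189, and DESeq2 on the recovered reads gave 2.56 ± 0.61 (SE, DESeq2 adjusted p = 0.0111). The scales of these fold changes differ, so their sizes cannot be compared. For WWTR1 they were -1.53 in the authors' deposited table and -1.98 in DESeq2. For CDH1 they were 0.53 and 0.77, at an unadjusted p of 0.0065 in the authors' deposited table and in DESeq2. The reason was not tested. limma gave 2.20 ± 0.56 (SE) and an adjusted p of 0.412, edgeR an adjusted p of 0.209 and limma-voom one of 0.554. The DESeq2 call ended without knockdown 2 (log2 fold change 1.24, DESeq2 adjusted p = 1) and without control 2 (2.37, DESeq2 adjusted p = 0.203). Without control 1 the DESeq2 log2 fold change was 2.81 and no adjusted p was given, and without knockdown 1 the call held at 3.25. The difference between the single knockdown libraries, 1.99 ± 0.52 on the log2 scale (knockdown 2 minus knockdown 1), had an SE taken from the spread of the controls alone.

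ESRP2, the paralogue of ESRP1, had 506 and 605 normalized counts in the controls against 614 and 621 after knockdown, and its log2 fold change was 0.16 ± 0.18 (SE, limma adjusted p = 0.889). The knockdown values lay above both controls, but by 0.02 at the least on the log2 scale. Exons of ESRP2 and of NFATC3, a gene on the opposite strand, overlap in GENCODE 29, and the library kit as described marks no strand, so part of the ESRP2 count could belong to NFATC3 (819 to 973). Per kilobase of longest transcript, ESRP1 made up 3.87 and 2.40% of the ESRP1 and ESRP2 sum in the controls, and 6.33 and 21.3% in knockdown 1 and 2. With the shortest transcripts these shares were 0.894, 0.549, 1.49 and 5.73%, so their size depends on the transcript chosen. ESRP2 held the larger share in every library by either length.

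The exon patterns that ESRP proteins control cannot be read from counts per gene, but the levels of their target genes can. Of 12 such genes tested, limma called 0, beside 0.0113% of all tested genes. An unadjusted limma p under 0.05 was found for 0, beside 7.05% of all tested genes. The authors' deposited table called 0, beside 0.537% of its genes. Means were higher for 6 and lower for 6 (median log2 fold change -0.0041). Without knockdown 2 means were higher for 8 and lower for 4 (median 0.07), and without knockdown 1 higher for 4 and lower for 8 (median -0.08). CD44, a hyaluronan receptor whose variable exons follow ESRP1, had 3356 and 4769 normalized counts in the controls against 4789 and 5220 after knockdown (limma adjusted p = 0.762). ENAH, an actin regulator with an epithelial exon, had 3289 and 3819 against 4980 and 3324 (limma adjusted p = 0.868). The scaffold genes MAGI1 and SCRIB had log2 fold changes of 0.21 ± 0.21 and -0.20 ± 0.18 (SE). Neither passed limma, with adjusted p of 0.862 and 0.845.

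Other splicing factors that act on epithelial and mesenchymal exons did not pass either. Of 11 tested, means were higher for 7 and lower for 4, the median log2 fold change was 0.07, and 0 passed limma or the authors' deposited table, with 0 at an unadjusted limma p under 0.05. RBM47, an RNA-binding protein of epithelia, had 126 and 75.9 normalized counts in the controls against 131 and 132 after knockdown. HNRNPM, which favours mesenchymal exons of CD44, had 6240 and 6184 against 5328 and 5059, below both controls, with a limma adjusted p of 0.770. SRSF1 and NOVA1 had log2 fold changes of -0.24 ± 0.18 and 0.42 ± 0.36 (SE), with limma adjusted p of 0.814 and 0.835. The list median turned to -0.10 when the trend with transcript length and GC content was removed, to -0.02 without control 1 and to -0.09 without knockdown 1.

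CDH1, which encodes E-cadherin, had 820 and 1329 normalized counts in the controls against 2296 and 1355 after knockdown. Both knockdown values lay above both controls, but knockdown 2 exceeded control 2 by only 0.03 on the log2 scale, and knockdown 1 held the higher value. Its log2 fold change of 0.76 ± 0.27 (SE) missed the threshold in limma (adjusted p = 0.650), edgeR (adjusted p = 0.532) and the authors' deposited table (adjusted p = 0.370). Its value was 2.14 times the control mean in knockdown 1 and 1.26 times in knockdown 2, the reverse of the order seen for ESRP1, and the controls themselves differed by 0.70 ± 0.37 on the log2 scale (SE, limma adjusted p = 0.742). Without either knockdown 1 or control 1 the log2 fold change was 0.38 to 0.41, and without knockdown 2 or control 2 it was 1.10 to 1.14.

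The profile of CDH1 over the 4 libraries was set beside those of the other genes in the upper part of the expression range (means not under the median gene). The 5 nearest, by Euclidean distance between log2 profiles centred on their means, were IGSF9B (distance 0.270), EGFR (0.286), GREB1L (0.294), CBLC (0.337) and HRNR (0.367). EGFR, the epidermal growth factor receptor, had 2363 and 3889 normalized counts in the controls against 5733 and 4473 after knockdown. CBLC, an epithelial ubiquitin ligase of the CBL family, had 131 and 177 against 282 and 159. With 4 libraries such likeness is a description only.

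None of the junction partners of E-cadherin passed. Of 12 genes of catenins, nectins and their associated proteins, means were higher for 10 and lower for 2, 5 lay above both controls, 0 passed limma or the authors' deposited table (3 at an unadjusted limma p under 0.05). Over all tested genes 18.4% lay above both controls and 7.05% had an unadjusted limma p under 0.05. The list had a median log2 fold change of 0.19. That median was 0.31 without knockdown 2 and 0.37 without control 1. The check with the length and GC trend removed was void for this list, since only 7 of the 12 had a length (median 0.04 over those 7). PVRL1, the cell adhesion molecule nectin-1, had 1380 and 1368 normalized counts in the controls against 2030 and 1868 after knockdown (limma adjusted p = 0.595). PVRL3, nectin-3, had 130 and 181 against 231 and 256, and MLLT4, which encodes the nectin-binding protein afadin, had 1483 and 1741 against 2100 and 2195. JUP, plakoglobin, had a log2 fold change of 0.35 ± 0.16 (SE). Their limma adjusted p was 0.650, 0.685 and 0.714 in that order.

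Among other cadherins, CDH3 was the 1 gene called. It encodes P-cadherin, the cadherin of basal epithelial cells, and had 3308 and 3207 normalized counts in the controls against 5019 and 5430 after knockdown. The authors' deposited table called it higher (log2 fold change 0.58 on its own scale, adjusted p = 0.0367), as it did 0.45% of its genes. For CDH3 limma gave 0.68 ± 0.16 (SE) with an adjusted p of 0.367. Of the 6 genes tested on this list, 5 had a higher mean, with a median of 0.23. CDH24 had 440 and 319 normalized counts against 530 and 348, and the other 4 had under 10 in every library. The median was 0.38 without knockdown 2 or control 1, 0.07 without knockdown 1 and 0.10 without control 2.

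OVOL2, a zinc finger repressor of ZEB1, was low but higher in both knockdown libraries. It had 7.42 and 5.75 normalized counts in the controls against 17.7 and 31.3 after knockdown, from 8 and 5 recovered reads against 20 and 30. The groups did not overlap, and the mean went from 6.59 ± 1.18 to 24.5 ± 9.59 (SD, n = 2 each), 3.72-fold. The 95% Poisson intervals of control 1 (3.20 to 14.6) and control 2 (1.87 to 13.4) overlapped that of knockdown 1 (10.8 to 27.4) and lay below that of knockdown 2 (21.1 to 44.6). OVOL2 thus had a log2 fold change of 1.70 ± 0.50 (SE), a limma adjusted p of 0.553 and an edgeR adjusted p of 0.429. The authors' deposited table and DESeq2 gave no adjusted p. OVOL2 was the member whose profile lay nearest to that of ESRP1 (distance 0.99 over 4 libraries).

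OVOL1 and GRHL2 were at the edge of detection. OVOL1, the paralogue of OVOL2, had 4.64 and 0 normalized counts in the controls against 0.886 and 5.21 after knockdown, which is 5, 0, 1 and 5 reads. The 0 reads in control 2 allow up to 3.45 normalized counts by a floor of 3 reads, and up to 4.24 by the 95% Poisson interval. GRHL2, a Grainyhead-like activator of CDH1, had 0 and 1.15 against 0 and 4.17, or at most 4 reads in a library, and by the floor of 3 reads its 0 values allow up to 2.78 in control 1 and 2.66 in knockdown 1 (3.42 and 3.27 by the Poisson interval). For both genes the groups overlapped, and no difference was detectable at this depth (limma adjusted p = 0.938 and 0.923).

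Of 10 other epithelial transcription factors tested, means were higher for 2 and lower for 8, 0 passed limma or the authors' deposited table (1 at an unadjusted limma p under 0.05, beside 7.05% of all tested genes). The list had a median log2 fold change of -0.10. ELF3, an epithelial ETS factor, had 1332 and 388 against 514 and 271, so the groups overlapped (limma adjusted p = 0.714). OVOL3 had at most 8.35 normalized counts. The median was near 0 without knockdown 1 (0.0049), was -0.16 without control 1 and was -0.15 without control 2.

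**Figure D2:**
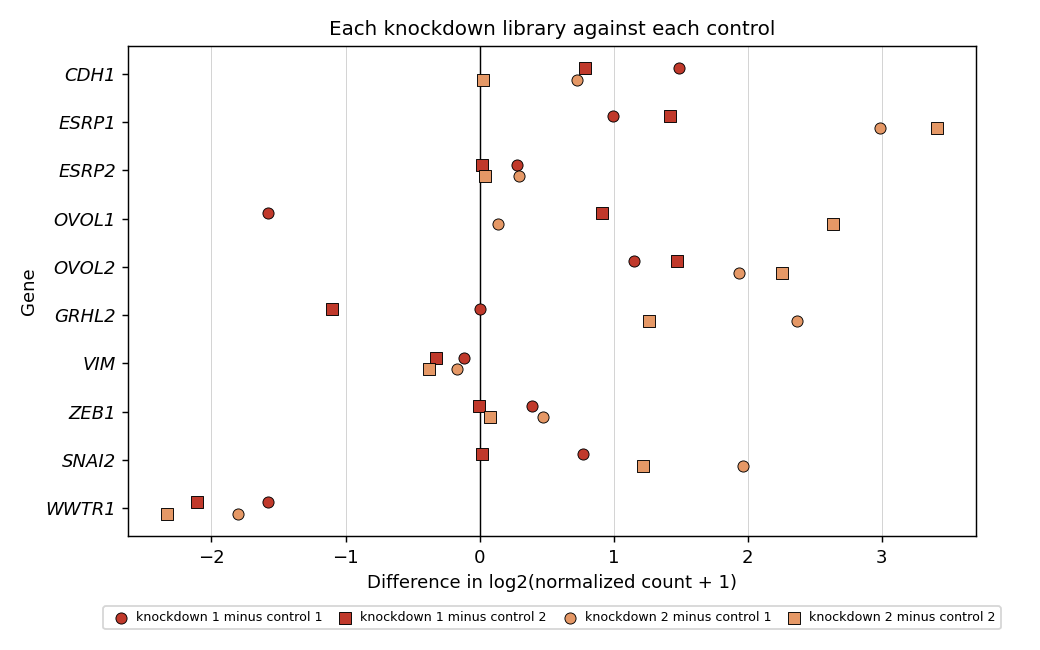
Difference in log2(normalized count + 1) (x axis) of each knockdown library from each control, for the 9 genes and WWTR1. Colour marks the knockdown library and shape the control. All 4 differences lay above 0 for CDH1, ESRP1, ESRP2, OVOL2 and SNAI2, and below 0 for VIM and WWTR1.

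VIM, which encodes the mesenchymal intermediate filament vimentin, was the 1 member with a lower mean. It had 20510 and 23760 normalized counts in the controls against 18919 and 18297 after knockdown, below both controls in both. The log2 fold change was -0.25 ± 0.19 (SE), and the 4 single differences ran from -0.38 to -0.12. It did not pass limma (adjusted p = 0.815) or the authors' deposited table (adjusted p = 0.968). VIM-AS1, an antisense gene whose exons overlap those of VIM, had 10.6 to 26.5 normalized counts, and without strand the reads of the pair cannot be told apart. With the trend of length and GC content removed the VIM value was -0.13.

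ZEB1 RNA was not separated from control. It had 407 and 536 normalized counts in the controls against 534 and 565 after knockdown, and knockdown 1 lay between the controls. The log2 fold change was 0.23 ± 0.19 (SE, limma adjusted p = 0.833), and with the length and GC trend removed it was 0.04. ZEB1-AS1, an antisense gene with overlapping exons, had at most 45.2 normalized counts. Among the members, the profiles of ZEB1 and ESRP2 lay nearest to each other (distance 0.130 over 4 libraries).

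SNAI2, which encodes the repressor Slug, was higher mainly in knockdown 2. It had 42.7 and 72.5 normalized counts in the controls against 73.5 and 170 after knockdown. Knockdown 1 lay 0.02 above control 2 on the log2 scale, and knockdown 2 lay 1.22 and 1.97 above the controls. The mean went from 57.6 ± 21.1 to 122 ± 68.2 (SD, n = 2 each), a log2 fold change of 0.99 ± 0.41 (SE, limma adjusted p = 0.690). In the authors' deposited table the adjusted p was 0.599. Without knockdown 2 the log2 fold change was 0.40. Of the knockdown libraries, knockdown 2 had the higher SNAI2 and the lower CDH1 value. The controls did not share this order. There SNAI2 and CDH1 were both higher in control 2 (72.5 and 1329 normalized counts) than in control 1 (42.7 and 820).

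Of 9 other transcription factors of the transition tested, means were higher for 4 and lower for 5, 0 passed limma or the authors' deposited table (0 at an unadjusted limma p under 0.05). The list had a median log2 fold change of -0.03. SNAI1, which encodes Snail, had 91.8 and 98.9 normalized counts in the controls against 98.3 and 64.6 after knockdown (limma adjusted p = 0.892). KLF8 had 27.8 and 32.2 against 34.5 and 68.8, and GSC had at most 3.13. The sign of this median turned without control 2 (0.04), without knockdown 1 (0.05), in DESeq2 (0.02) and with the length and GC trend removed (0.05).

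Targets on the 2 sides of the circuit were then counted. Of 24 genes of the epithelial program that ZEB1 represses, means were higher for 19 and lower for 5, 16 had both knockdown values above both controls and 0 had both below (median log2 fold change 0.75). Over all tested genes these shares were 18.4% and 19%. None passed limma, 13 had an unadjusted limma p under 0.05 (7.05% of all tested genes had one), and the authors' deposited table called 4, all higher (CDS1, ST14, SPINT1 and MAL2). That table called 0.45% of its genes as higher. ST14, the membrane protease matriptase, had 181 and 206 normalized counts in the controls against 422 and 522 after knockdown (adjusted p = 7.1e-04 in the authors' deposited table). SPINT1, its inhibitor, had 642 and 671 against 1187 and 1323, and the phospholipid enzyme gene CDS1 had 52.9 and 65.6 against 126 and 187. MAL2, a protein of apical transport, had 276 and 317 against 450 and 966. Their limma adjusted p was 0.152 to 0.446. The median was 0.43 without knockdown 2, and 18 to 21 of the 24 genes had a higher mean when any 1 library was left out. This list was chosen with some of these values known, so its direction is no separate support.

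Of 15 mesenchymal effector genes tested, means were higher for 11 and lower for 4, 6 lay above both controls and 1 below (median log2 fold change 0.36). Over all tested genes 18.4% lay above both controls and 19% below. limma called 0 (4 at an unadjusted p under 0.05), edgeR called TNC (edgeR adjusted p = 0.0426), and the authors' deposited table called TNC, TGFBI, FN1 and TAGLN, all higher. Of all tested genes, 7.05% had an unadjusted limma p under 0.05 and edgeR called 0.0564%. The authors' deposited table called 0.45% of its genes as higher. This list, too, was chosen with earlier results of these data known, so its direction is no separate support. FN1, fibronectin, had 540 and 545 normalized counts in the controls against 766 and 1840 after knockdown, with its larger value in knockdown 2 (adjusted p = 0.0192 in the authors' deposited table). TGFBI, a matrix protein induced by TGF-beta, had 10093 and 10890 against 18987 and 16916, and TAGLN, an actin-binding protein of smooth muscle, had 645 and 1185 against 1968 and 1767. TNC, tenascin-C, had 5007 and 5305 against 10249 and 13881. The list median was 0.06 without control 1, 0.19 without knockdown 2 and 0.60 without knockdown 1. Over the fibroblast markers, 6 of 8 were tested, and their summed level was 106 and 57.5 in the controls against 175 and 159 after knockdown, mostly COL1A1, while PDGFRA was at 0 in control 1 and knockdown 1. The libraries came from the DU145 line, and which cells of the cultures made these RNAs was not tested.

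**Figure D3:**
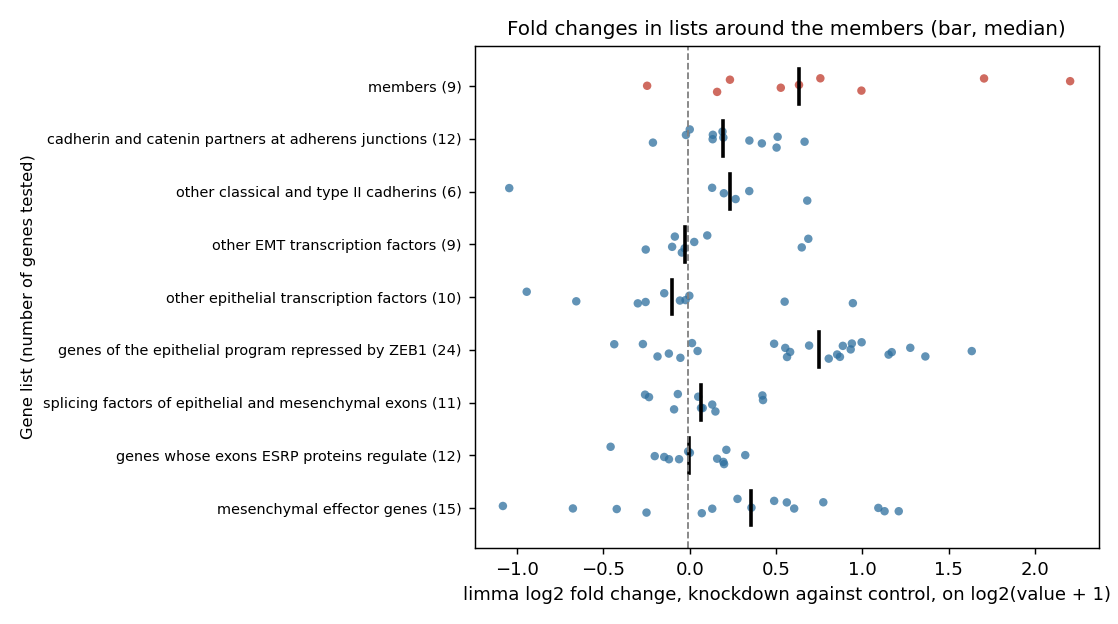
limma log2 fold change of each tested gene (points) in the 9 members and in 8 lists around them, with list medians as bars and the median of all tested genes (-0.01) as a dashed line. The medians were 0.75 for the epithelial program repressed by ZEB1 and 0.36 for the mesenchymal effector genes. The other transcription factor lists had medians of -0.03 and -0.10.

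KRT8, a keratin of simple epithelia, had 18494 and 24944 normalized counts in the controls against 14618 and 8485 after knockdown, and its partner KRT18 had 9412 and 13485 against 8369 and 5318. Both lay below both controls, with limma adjusted p of 0.518 and 0.598. EPCAM, an epithelial adhesion molecule, lay above both controls, with 520 and 661 against 709 and 1061 (limma adjusted p = 0.685). KRT19 had 6264 and 9725 against 6909 and 6162, with overlapping groups.

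Levels of the 9 members were compared with each other per kilobase of the longest protein-coding transcript. In the controls VIM had the highest level of the 9 at 10368, followed by CDH1 (220), ESRP2 (146), ZEB1 (75.3), SNAI2 (23.7), ESRP1 (4.65), OVOL2 (4.24), OVOL1 (0.764) and GRHL2 (0.110). VIM exceeded 99.7% of the 14583 tested genes with a length and CDH1 exceeded 73.3%. CDH1 stood at 1.75 and 2.44% of VIM per kilobase in the controls and at 5.30 and 3.23% in knockdown 1 and 2. Control values of neighbours in this order overlapped for ESRP1 with OVOL2 and for OVOL1 with GRHL2. In knockdown 2 ESRP1 reached 44.4, still below SNAI2 at 70.0. The order depends on the transcript used, since with the shortest one ESRP2 (1162) and ZEB1 (532) came before CDH1 (519).

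**Figure D4:**
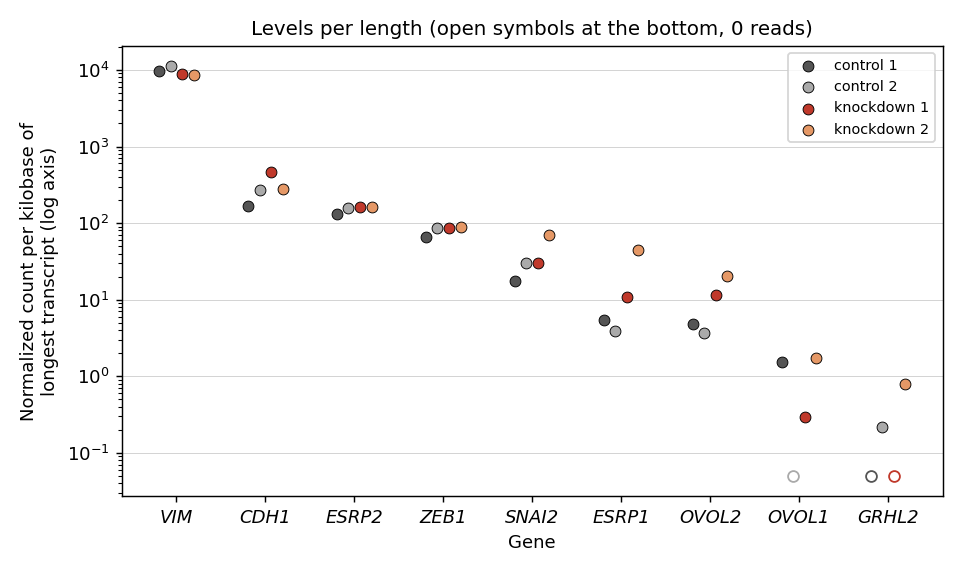
Normalized count per kilobase of longest transcript (y axis, log scale) in each library for the 9 genes, ordered by control mean. Open symbols at the bottom mark 0 reads. VIM lay at 8570 to 11129 and GRHL2 at or below 0.796.

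The knockdown libraries were also compared with each other. Relative to knockdown 1, knockdown 2 was higher for ESRP1 by 1.99 ± 0.52, for SNAI2 by 1.20 ± 0.51 and for OVOL2 by 0.79 ± 0.66 on the log2 scale, while CDH1 was lower by that measure (-0.76 ± 0.37, SE from the controls alone). Each side of this contrast is 1 library and its spread comes from the controls alone, so that few differences could pass. limma called 0 of 17737 genes, with 524 (2.95%) at an unadjusted p under 0.05, which does not show that the libraries were alike. Between the controls the same members differed by -0.42 to 0.75, and 0 genes were called, with 1189 (6.7%) at an unadjusted p under 0.05. WWTR1 was close in the knockdown libraries, with a difference of -0.22 ± 0.32.

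**Figure D5:**
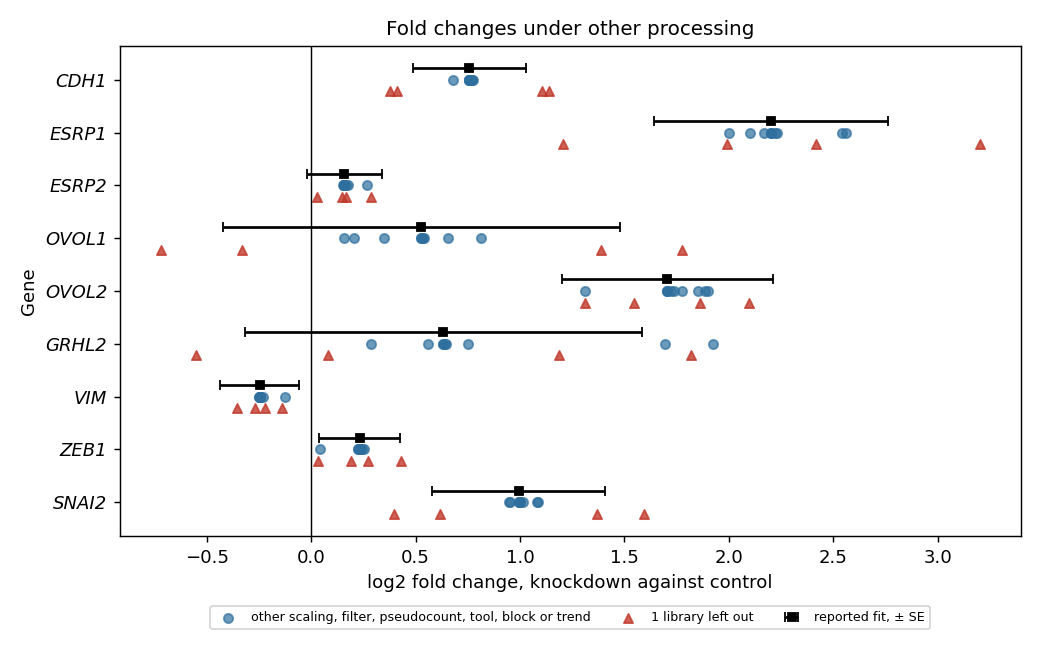
log2 fold change (x axis) of the 9 genes in the reported limma fit (squares, ± SE), under other scalings, filters, pseudocounts, tools, a block or trend removal (circles), and with 1 library left out (triangles). Signs turned for OVOL1 and GRHL2, and ESRP1 ran from 1.21 to 3.20.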

How the data were processed

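RNA-seq was deposited as 1 table with a row per gene symbol, covering 2 control and 2 TAZ knockdown libraries. Its per-library values are a signal in the form of normalized read counts, and the authors' other columns, per the file headers, hold a mean, a log2 fold change and its error, a Wald statistic (a score), and raw and adjusted p-values. The submitters' processing notes name STAR, DESeq2 and hg19 without version or role. The annotation and the counter were not named there. All values of a library (100%) were whole multiples of its smallest value above 0, within 0.001 reads, so whole reads were recovered. Of 19897 rows, 26 held symbols turned into dates (0.153 to 0.191% of a library's reads) and were left out.

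The members and gene lists were chosen with earlier results of these data known. Genes with a value of at least 1 in at least 2 libraries were tested (17737 of 19871) with limma 3.58.1 (R 4.3.3, trend, no block) on log2(value + 1). Benjamini-Hochberg adjustment ran over all tested genes, and calls were made under 0.05. Values on this scale understate those of low genes. Alternatives were edgeR 4.0.16 (quasi-likelihood test), DESeq2 1.42.0 and limma-voom on the recovered reads, TMM scaling, other filters and pseudocounts (0.5 and 5), a replicate block, removal of each library's spline trend with transcript length and GC content, and leaving out each library. limma, edgeR and DESeq2 were also run on simulated data, with large changes set only in genes above a minimum of reads. That check does not cover small changes or genes with few reads, such as OVOL1, OVOL2 and GRHL2. Lengths came from GENCODE 29 protein-coding transcripts (14583 tested genes matched), and promoter windows from RefSeq (GRCh38.p14). Since the table's build is another, no gene coordinates are given for it.

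From each list the text names the members past the test in limma or the authors' deposited table, or else the 4 with the smallest limma p. Some genes that this rule would name are not reported here. The 5 genes nearest to CDH1 were named by the distance between centred log2 profiles. Intervals on reads are exact 95% Poisson intervals and cover counting error only, since reads without molecular identifiers are not independent molecules.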

Additional observations from a re-analysis of the deposited data

How the results depend on the processing

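Of 124 alternative values of the 9 members' log2 fold changes, 120 kept their direction and their side of the threshold. The exceptions were ESRP1 in DESeq2 (2.56, past the threshold), OVOL1 without control 2 (-0.72) or knockdown 2 (-0.33) and GRHL2 without knockdown 2 (-0.55), the last 2 genes at 0 to 5 reads a library. The causes were not tested. A missing adjusted p, as for OVOL1, OVOL2 and GRHL2 in DESeq2, was counted as not past the threshold. No member passed in the reported fit, so only a gain could change the side. Fits with the filter applied anew are not among these values. With 1 library left out, values ran from 0.38 to 1.14 for CDH1, 1.21 to 3.20 for ESRP1, -0.72 to 1.77 for OVOL1, -0.55 to 1.82 for GRHL2 and -2.22 to -1.69 for WWTR1, whose limma adjusted p then rose to between 0.308 and 0.9999 with the tested genes held fixed. The lone library of a group was assumed to vary like the other group.

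limma called 2 genes in the reported fit, edgeR 10, DESeq2 68 and limma with the replicate block 7. Without any 1 library limma called 0 (298 to 1358 at an unadjusted p under 0.05), and DESeq2 called 4 to 80. Chosen after the data were seen, limma was also run with the filter applied anew to the 3 libraries kept. The number of genes called rose there and moved with the library left out. Each such fit has a group of 1 library, so only sizes are given for members. The log2 fold changes were 1.21 to 3.20 for ESRP1, 0.38 to 1.14 for CDH1 and 0.40 to 1.59 for SNAI2. The replicate numbers did not pair the libraries (correlation of deviations -0.04 across genes), and the replicate block changed no call of a member in limma. In DESeq2 the ESRP1 log2 fold change was 2.25 with the replicate block (DESeq2 adjusted p = 0.162), 2.42 with the length and GC trend as offsets (DESeq2 adjusted p = 0.0365), and 1.24 to 3.25 with 1 library left out, alternatives also added after the data were seen. The depth limits statements on OVOL1, OVOL2 and GRHL2.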
